A study of Mus musculus with 42 samples.

Results

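The 37 genes described here encode transporters and endocytic receptors of the renal proximal tubule and 1 scaffold protein. They were chosen by name for their known role in this segment, by a rule that uses no measured value but with earlier results of these data known, and all 37 were found among the 43629 genes of the count table. The data are 30 kidney and 12 liver libraries made by CEL-seq, which counts transcripts from their 3′ ends, of UM-HET3 mice, a genetically mixed cross of 4 inbred lines. All mice were males that were 3 months old when the diets began and 4 months old when tissue was taken after 1 month. The 6 compounds, each with 4 kidney libraries, were AS-703026 at 30 ppm (an inhibitor of the MEK kinases), ascorbyl-palmitate at 6.3 ppm (a fat-soluble ester of vitamin C), AZD8055 at 20 ppm and KU0063794 at 10 ppm (inhibitors of the mTOR kinase), enzastaurin at 75 ppm (an inhibitor of protein kinase C beta) and GDC-0941 at 50 ppm (an inhibitor of PI3-kinase), all mixed into Purina 5LG6 chow. The 6 kidney control libraries came from littermates on the same chow with nothing added. Liver libraries, 4 for each compound, were available for AS-703026, enzastaurin and GDC-0941, and liver control libraries were not analysed here.

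The proximal tubule is the first part of the nephron after the glomerulus and takes back most of what is filtered. Sodium-coupled carriers at its luminal membrane take up glucose, lactate, citric acid cycle intermediates, sulfate and amino acids, and partner carriers on the blood side let them out. Megalin and cubilin, with their anchor amnionless, take up filtered proteins by endocytosis, and organic anion and cation transporters move drugs, urate and waste from blood to urine in 2 steps, one at each membrane. The tubule is divided into early and late segments that use different carriers for the same solute, and several of the genes are also used by hepatocytes.

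Library totals ran from 863605 to 5691067 counts in kidney, with a median of 2248550, and from 1084591 to 4361115 counts in liver. Kidney markers (Slc34a1, Umod and Kap) summed to between 12556 and 66138 CPM (each count as a share of its library's TMM-scaled size) in kidney libraries and to at most 0.946 CPM in liver libraries, and liver markers (Alb, Apoa2 and Serpina1e) to between 23989 and 66751 CPM in liver libraries. In kidney the liver markers summed to at most 17.7 CPM, except for 387.7 CPM in AZD8055 replicate 4 and 762.5 CPM in enzastaurin replicate 1. The kidney library AZD8055 replicate 4 stood apart. Its 5 adipocyte markers summed to 25965 CPM, with Ucp1 at 4140 CPM, against 52.8 to 309 CPM in the other kidney libraries, and the 37 genes took 0.348% of its counts, against 0.826% to 1.35% in the other kidney libraries. Satellite-like gene models, 13 models that share sequence with Gm10800, took 5% or more of the counts in 11 kidney libraries, among them AS-703026 replicates 2, 3 and 4. In liver they took 0.857% to 1.77% of the counts of the AS-703026 libraries and at most 0.645% of the others.

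Levels in kidney spanned more than 3 orders of magnitude between genes. Each level below is a mean over the 30 kidney libraries with its SD. CEL-seq counts 3′ ends, so CPM is not divided by transcript length, and because these are bulk tissues, fewer cells of a type and less RNA per cell cannot be told apart. The highest was Slc27a2, a fatty acid transporter and acyl-CoA synthetase, at 1376 ± 291 CPM. Lrp2, which encodes megalin, followed at 864 ± 228 CPM. Its partners were lower, with Amn, the membrane anchor of cubilin, at 124 ± 23.99 CPM and Cubn, cubilin itself, at 60.2 ± 13.3 CPM.

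The organic anion and urate carriers were the largest class, with 11 genes, and are given here together with the organic cation carriers. On the blood side, Slc22a8 (OAT3) stood at 819.9 ± 283 CPM and Slc22a6 (OAT1) at 451 ± 118 CPM, and for organic cations Slc22a2 (OCT2) at 769 ± 149 CPM. On the urine side, Abcg2, an efflux pump for urate and drugs, stood at 798 ± 157 CPM, Slc47a1 (MATE1), which exports organic cations such as metformin, at 641 ± 131 CPM, and Abcc2 and Abcc4 (MRP2 and MRP4, export pumps for conjugated anions) at 190.2 ± 63.1 and 23.9 ± 10.2 CPM. These entry and exit carriers were thus both well counted, and MRP4 was the low one of those named so far. Slco4c1, of the same class as MRP4, was lower still, at 6.66 ± 7.62 CPM. The phosphate and urate carriers Slc17a1 (NPT1) and Slc17a3 (NPT4) stood at 418 ± 82.8 and 383 ± 75.6 CPM, the anion carriers Slc22a7 and Slc22a19 at 80.7 ± 45.9 and 244 ± 298 CPM, and Slc22a12 (URAT1), which takes urate back from urine, at 365 ± 80.2 CPM.

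Among the nutrient carriers, Slc6a19 (B0AT1), the main neutral amino acid carrier of the early tubule, stood highest at 651 ± 228 CPM. Slc6a18, a relative used later along the tubule, stood at 271 ± 113 CPM and Slc6a20b, of the same gene family, at 145 ± 21.7 CPM. Slc13a3 and Slc13a1, which take up dicarboxylates and sulfate with sodium, stood at 397 ± 108 and 296 ± 78.8 CPM, and the lactate carriers Slc5a8 and Slc5a12 at 313 ± 96.7 and 228 ± 109 CPM. Slc4a4, which lets bicarbonate out to the blood, stood at 728 ± 192 CPM and Aqp1, a water channel, at 247 ± 62.2 CPM. Of the rest, Slc2a2, the glucose exit carrier, stood at 132 ± 34.6 CPM, Slc5a10, a late-tubule sugar carrier, at 108 ± 29.2 CPM, Slc26a1, a sulfate exchanger, at 172 ± 46.4 CPM and Slc7a9, the light chain of the cystine carrier, at 76.1 ± 19.5 CPM. Slc7a8, a blood-side neutral amino acid carrier, stood at 71.5 ± 25.9 CPM, and Slc16a9, a monocarboxylate carrier linked to carnitine export, at 16.4 ± 7.17 CPM.

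**Figure D1:**
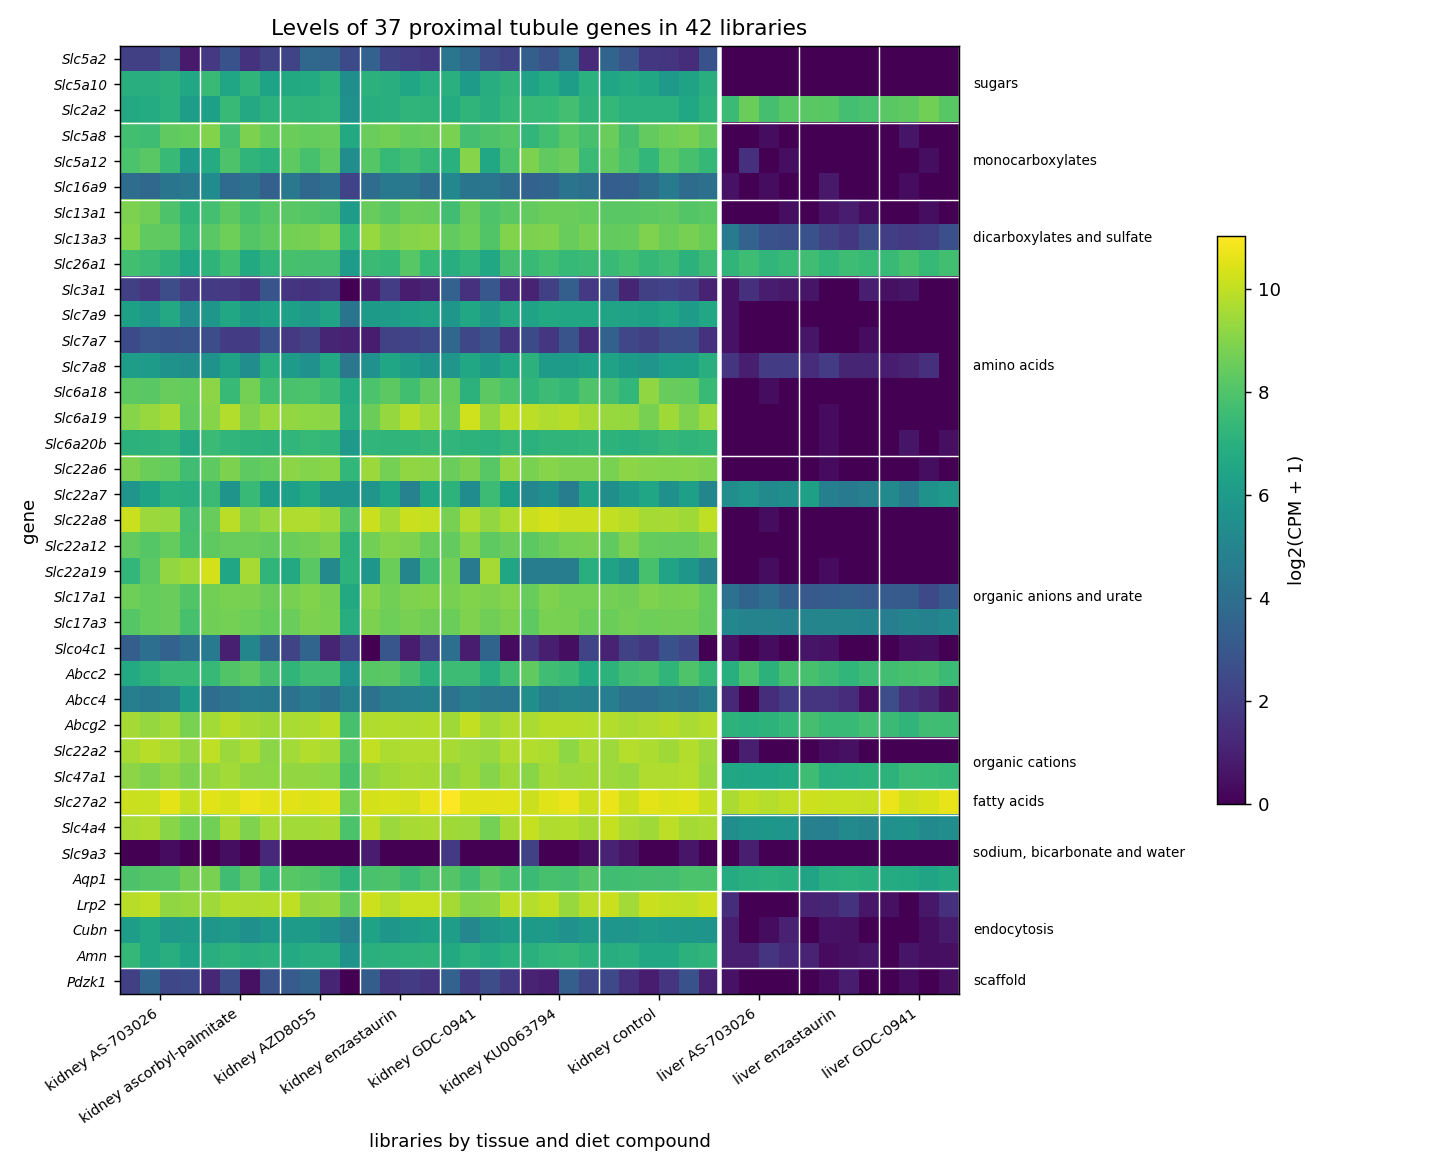
Level of each of the 37 genes (rows, by substrate class) in each of the 42 libraries (columns, by tissue and compound), as log2(CPM + 1) with CPM scaled by TMM within each tissue. The fourth AZD8055 kidney column is darker than its neighbours in nearly every row. Of the 12 rows that average 5 CPM or more in liver, Slc13a3 and Slc17a1 have the lowest liver levels, at 6.31 and 9.28 CPM.

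Some of the best-known genes of this segment were barely counted, 6 of them below 7 CPM. Slc5a2 (SGLT2), the main glucose carrier, stood at 5.86 ± 4.28 CPM, the cystinuria gene Slc3a1 at 3.13 ± 2.36 CPM, Slc7a7, which lets cationic amino acids out to the blood, at 4.32 ± 2.46 CPM, and the scaffold Pdzk1 at 4.10 ± 3.21 CPM. Slco4c1, an organic anion carrier, stood at 6.66 ± 7.62 CPM. Slc9a3 (NHE3), the sodium and proton exchanger, had 19 counts in all kidney libraries together and 0 counts in 20 of the 30, so it was not tested, and the other 36 were. In the GENCODE annotation (GRCm38), the last 1000 bases of Slc5a2, Slc3a1 and Pdzk1 are overlapped over 100% of their exon bases by a gene on the opposite strand (BC017158, Prepl and Gpr89), and those of Slc7a7 over 36.9% by Oxa1l. Slc6a20b, overlapped over 99.9% by Sacm1l, was well counted, and Slc9a3 and Slco4c1 have no such overlap. The strand setting of the counting is not given in the sources used here, so reads of these pairs may not have been told apart, and the part of the overlaps in the low counts was not tested.

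The genes differed widely in how even they were between libraries of 1 group. Leaving out AZD8055 replicate 4, the coefficient of variation within groups was lowest for Slc6a20b, at 9.72%, followed by Slc17a1 at 10.4% and Abcg2 at 11.5%. Among the 36 genes tested it was highest for Slc22a19, a mouse organic anion carrier (OAT5) of the late tubule, at 109.0%, and Slco4c1 had 93.3%. Slc22a7 (OAT2), with 52.8%, and Slc5a12, with 43.9%, were the most uneven of the other well-counted genes.

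The contrast of kidney with liver was taken over the 12 libraries of each tissue that shared the compounds AS-703026, enzastaurin and GDC-0941. In edgeR's quasi-likelihood test, with p-values adjusted over 12262 genes by the Benjamini-Hochberg method, 34 of the 35 genes tested were called, where 77.1% of all genes were. Of these 34, 30 were higher in kidney and 4 lower at an adjusted p under 0.05, where 39.0% of all genes tested were higher and 38.1% lower. The members were chosen as kidney genes, so the direction is a description of the choice. Slc5a2, Slc5a10 and Slc22a12 had 0 counts in all 12 liver libraries. Against a floor of 3 counts over the pooled liver libraries (0.0892 CPM), they were at least 58.9-fold, 1297-fold and 4383-fold higher in kidney. Lrp2 averaged 852 ± 239.6 CPM in kidney and 0.795 ± 0.772 CPM in liver, Cubn 67.4 ± 15.5 CPM in kidney and 0.345 ± 0.373 CPM in liver and Amn 125 ± 22.5 CPM in kidney and 0.751 ± 0.620 CPM in liver (SD, n = 12 each), so all of the protein uptake complex was near 0 in liver.

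In liver, 12 of the genes averaged 5 CPM or more. Slc17a1 averaged 431 ± 78.8 CPM in kidney and 9.28 ± 3.27 CPM in liver (SD, n = 12 each), with a log2 change of 4.87. Slc17a3 averaged 385 ± 75.4 CPM in kidney and 30.5 ± 2.67 CPM in liver, Slc47a1 623 ± 104 CPM in kidney and 135 ± 36.2 CPM in liver and Abcg2 775 ± 147 CPM in kidney and 173 ± 29.5 CPM in liver. Slc4a4 averaged 697 ± 171 CPM in kidney and 41.5 ± 10.0 CPM in liver, Aqp1 261 ± 52.7 CPM in kidney and 113 ± 14.5 CPM in liver and Slc13a3 416 ± 136 CPM in kidney and 6.31 ± 5.69 CPM in liver. All 7 were called higher in kidney. The 5 hepatocyte markers summed to between 196 and 1525 CPM in kidney libraries, against 37677 to 90263 CPM in liver libraries.

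The 4 genes called lower in kidney were Slc2a2, Slc26a1, Abcc2 and Slc27a2. Slc2a2 (GLUT2), which hepatocytes also use for glucose, averaged 124 ± 25.5 CPM in kidney and 284 ± 65.5 CPM in liver, with a log2 change of -1.87 ± 0.11 (SE, adjusted p = 4.48e-15). The size of such differences depends on the scaling, since levels were scaled within each tissue, where the median gene is 0.71 higher in kidney on the log2 scale, whereas the joint fit scaled both tissues together and left that median at 0.05. Slc26a1 averaged 168 ± 54.2 CPM in kidney and 182 ± 23.4 CPM in liver with a log2 change of -0.80 in the joint fit. Abcc2 averaged 184 ± 59.9 CPM in kidney and 193 ± 39.8 CPM in liver with a log2 change of -0.77, and Slc27a2 averaged 1404 ± 285 CPM in kidney and 1171 ± 268 CPM in liver with a log2 change of -0.41, so that Slc27a2 was lower in kidney in the joint fit and higher in kidney, by 1.20 times, on the CPM scale, whereas the direction of Slc26a1 and Abcc2 was the same on both. Slc22a7 averaged 91.9 ± 46.5 CPM in kidney and 41.5 ± 16.4 CPM in liver and was not called, with a log2 change of 0.46 ± 0.28 (SE, adjusted p = 0.143). Without enzastaurin liver replicate 1 it was 0.66 (adjusted p = 0.0304), and without the libraries at 5% or more satellite-like counts it turned to -0.056 (adjusted p = 0.896).

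Promoter windows from RefSeq (GRCm38.p6), 250 bases before to 50 bases after each start, were found for 31 of the 37 genes. HNF4 factors are known to drive genes in both proximal tubule and liver, so the windows were searched on both strands for the HNF4 repeat (AGGTCA and AGGTCA with 1 A between them) with up to 2 mismatches. The repeat was matched in 1 of the 31 genes (3.23%) and in 456 of 27025 genes with such windows (1.69%). No test was made of these shares, and a match is a match of letters only. The matched window is that of the scaffold Pdzk1, on the plus strand at chr3:96829945-96830044, and is shown from 120 to 21 bases before the start with the matched bases in capitals, because it is the only one of the 31 with a match.
Pdzk1, HNF4 match: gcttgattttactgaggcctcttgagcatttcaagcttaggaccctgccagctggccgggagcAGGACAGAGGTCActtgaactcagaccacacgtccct

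The first matched base lies 57 bases before the start. Pdzk1 averaged 4.92 ± 3.14 CPM in kidney and 0.178 ± 0.262 CPM in liver (SD, n = 12 each).

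The compounds were each compared with control in kidney, to see whether a month on the diet changed the genes. A single edgeR quasi-likelihood model held all 30 kidney libraries, and the 6 comparisons share the same 6 control libraries. None of the 36 genes tested passed an adjusted p of 0.05 in any of the 6 comparisons or in the test for any difference among the 7 groups. Of all 11719 genes tested, 0.734% passed for AS-703026, 0.0427% for ascorbyl-palmitate, 5.38% for AZD8055, 0% for enzastaurin, 0.179% for GDC-0941, 0.0427% for KU0063794 and 2.12% in the test among the groups. At an unadjusted p under 0.05 there were 6 genes for AS-703026 (15.0% of all genes), 3 for ascorbyl-palmitate (12.5%), 3 for AZD8055 (19.8%), 0 for enzastaurin (7.68%), 1 for GDC-0941 (12.9%) and 2 for KU0063794 (9.7%). The share among the 36 was 16.7% for AS-703026 and at most 8.33% for the others. In the test among the groups 5 of the 36 genes had an unadjusted p under 0.05, against 16.1% of all genes. DESeq2 called 2 of the genes for AZD8055, 1 in the test among groups and 0 in the other 5 comparisons. Across the alternative settings, DESeq2 among them, 0 to 1230 of all genes were called for AZD8055 and 7 to 526 among the groups. Without AZD8055 replicate 4, whose make-up is given above, edgeR called 2 genes for AS-703026 (Slc47a1 and Abcc4), where 2.69% of 12227 genes were called, and 0 in the other 5 comparisons and in the test among the groups. In that fit 0.0736% of all genes were called for ascorbyl-palmitate, 0.262% for AZD8055, 0% for enzastaurin, 0.384% for GDC-0941, 0.0491% for KU0063794 and 1.12% among the groups.

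The median log2 change over the 36 genes was -0.18 for AS-703026, with 23 genes below 0 (47.2% of all genes tested), and -0.19 for AZD8055, with 27 below 0 (47.1%). It was -0.04 for ascorbyl-palmitate, with 20 below 0 (50.0%), 0.02 for GDC-0941, with 18 (49.1%), 0.05 for KU0063794, with 13 (53.0%), and 0.13 for enzastaurin, with 9 (51.2%). The median over all genes tested lay between -0.02 and 0.03 in the 6 comparisons. The AZD8055 median rests on 1 library. In AZD8055 replicate 4, 31 of the 36 genes lay below every control library, with a median log2 distance to the control mean of -1.67, and in the other 3 AZD8055 libraries 1 to 5 genes did, with medians of 0.03 to 0.06. Without that library the median over the 36 genes was 0.06, with 14 genes below 0, and 32 of all genes were called in place of 631.

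**Figure D2:**
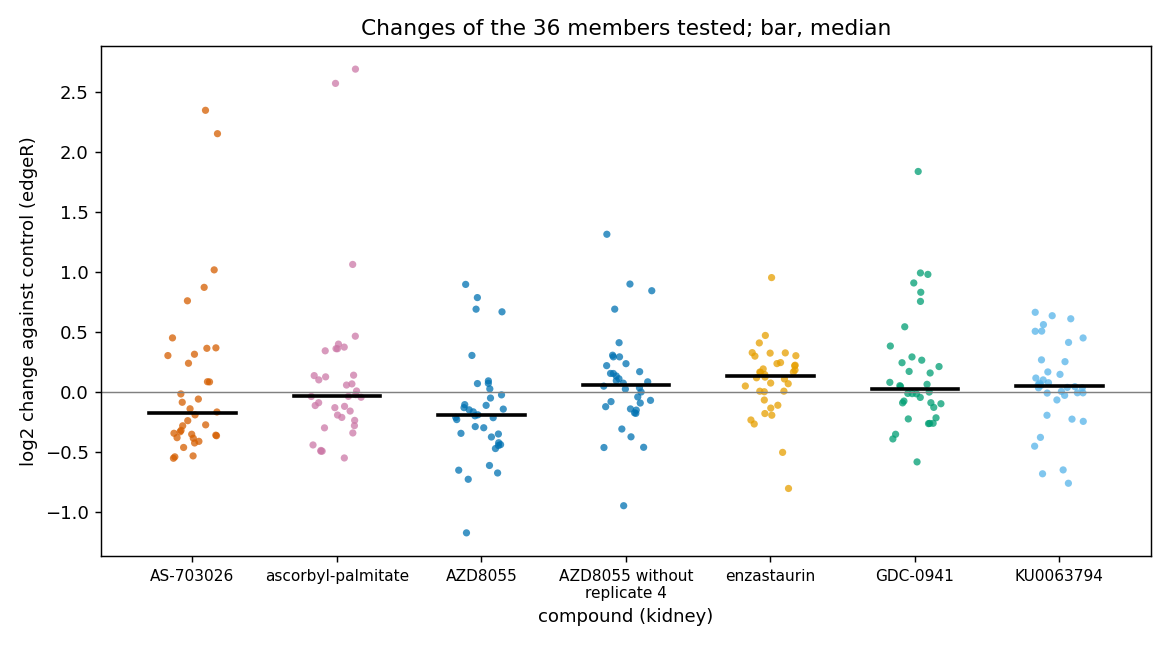
Log2 change against control of each of the 36 genes tested in kidney (y axis, edgeR), by compound (x axis), with AZD8055 also shown without replicate 4. Each point is a gene and each bar the median; the AZD8055 median is -0.19 with replicate 4 and 0.06 without it, and the highest points of AS-703026, ascorbyl-palmitate, enzastaurin and GDC-0941 are Slc22a19.

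Of the organic cation carriers, Slc47a1 came closest to the threshold. It had 607, 600.5, 568 and 223 CPM in the AZD8055 libraries and 557, 486, 592 and 466 CPM in the AS-703026 libraries, against 642 to 889 CPM with a median of 774 in control libraries. All 4 libraries of both compounds lay below all 6 control libraries, and the low AZD8055 value is replicate 4. The log2 change was -0.61 ± 0.19 (SE, adjusted p = 0.0520) for AZD8055 and -0.54 ± 0.19 (SE, adjusted p = 0.151) for AS-703026, by edgeR's quasi-likelihood test. Without AZD8055 replicate 4 it was -0.37 for AZD8055 (adjusted p = 0.212) and -0.53 for AS-703026 (adjusted p = 0.0195), so that AS-703026 passed the threshold without that library and AZD8055 moved away from it. Its entry partner Slc22a2 had log2 changes of -0.21 and -0.02 under the same compounds. In KU0063794 libraries, at another dose than AZD8055, Slc47a1 stood at 538, 743, 689.6 and 698 CPM.

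The endocytic receptor Lrp2 had 1026, 609.5, 642 and 331 CPM in AZD8055 libraries and 755, 507, 544 and 976 CPM in GDC-0941 libraries, against 728 to 1159.6 CPM with a median of 1094 in control libraries. Both groups overlap the controls, of which replicate 2, at 728 CPM, is far below the other 5. The log2 change was -0.67 ± 0.23 (SE, adjusted p = 0.0761) for AZD8055 and -0.58 ± 0.23 (SE, adjusted p = 0.262) for GDC-0941. Without AZD8055 replicate 1 the AZD8055 change had an adjusted p of 0.00837, without control replicate 2 it was -0.77 (adjusted p = 0.0421) and without AZD8055 replicate 4 -0.46 (adjusted p = 0.331). Without the libraries at 5% or more satellite-like counts, only replicates 3 and 4 of AZD8055 remain, and replicate 4 is the library with the adipocyte markers. In that fit the AZD8055 change was -1.19 for Lrp2 (adjusted p = 0.0173, edgeR) and -0.98 for Slc47a1 (adjusted p = 0.0335, edgeR). The other parts of the receptor complex were nearer to control. The log2 change of Cubn was -0.16 and that of Amn -0.30 under AZD8055, and neither passed an unadjusted p of 0.05 under any compound. In KU0063794 libraries Lrp2 had 894, 1054, 647 and 965 CPM, at another dose.

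**Figure D3:**
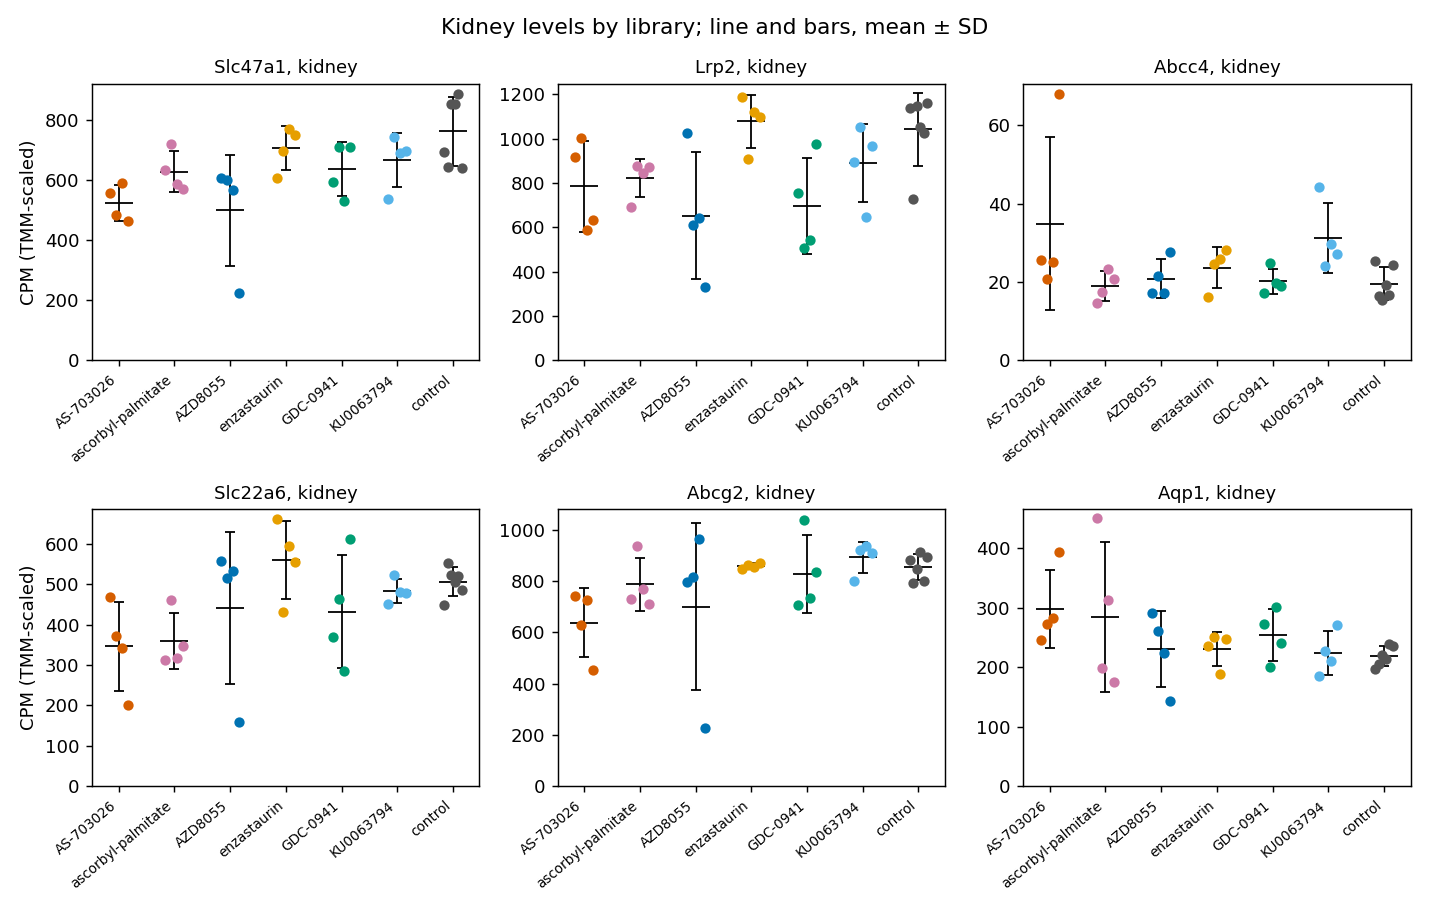
CPM of Slc47a1, Lrp2, Abcc4, Slc22a6, Abcg2 and Aqp1 in each kidney library (points), by compound with control at the right; lines and bars are the mean and SD. Slc47a1 lies below all controls in the 4 AS-703026 and the 4 AZD8055 libraries, and the lowest AZD8055 point of Slc47a1, Lrp2, Slc22a6, Abcg2 and Aqp1 is replicate 4.

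AS-703026 had the most genes at an unadjusted p under 0.05. Abcc4 had 25.6, 20.9, 25.1 and 67.9 CPM, against 15.5 to 25.3 CPM with a median of 17.97 in control libraries, with a log2 change of 0.87 ± 0.26 (SE, adjusted p = 0.0866). The excess is in replicate 4, and without that library the change was 0.31 (adjusted p = 0.694). In that library the thin limb and inner medulla list (5 markers) summed to 3549 CPM, against 129.5 to 512 CPM in the other 3 AS-703026 libraries and 81.9 to 100.9 CPM in controls, and 21 of the 36 genes lay below every control. The part of inner medulla in these values was not tested.

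The anion carrier Slc22a6 had 468, 373, 342 and 201 CPM in AS-703026 libraries, against 448 to 552 CPM with a median of 514 in controls, with a log2 change of -0.55 ± 0.25 (SE, adjusted p = 0.278). Only replicate 1 reached into the control range. Abcg2 had 742, 629, 727 and 452 CPM, below all controls (792 to 913 CPM with a median of 865), with a log2 change of -0.42 ± 0.22 (SE, adjusted p = 0.366). Aqp1 had 245, 273, 283 and 394 CPM, above all controls (198 to 239 CPM with a median of 217), with a log2 change of 0.45 ± 0.20 (SE, adjusted p = 0.285). In all, 2 genes lay wholly above the controls under AS-703026 (Slco4c1 and Aqp1) and 2 wholly below (Abcg2 and Slc47a1), where 1.72% and 1.86% of all genes tested did. Without AS-703026 replicate 4 the change of Slc22a6 was -0.35 (adjusted p = 0.698) and that of Aqp1 0.30 (adjusted p = 0.692). Without the libraries at 5% or more satellite-like counts, which leaves 1 AS-703026 library, the log2 changes were -0.052 for Slc22a6, 0.16 for Aqp1 and 0.28 for Abcc4.

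Under KU0063794, 3 genes lay wholly above the controls (Slc13a1, Slc6a19 and Slc22a8), where 0.964% of all genes tested did, and 0 lay wholly below, where 0.939% did. Slc6a19 had 994, 857, 936 and 757 CPM, against 439.6 to 709 CPM with a median of 641 in controls, with a log2 change of 0.56 ± 0.33 (SE, adjusted p = 0.612). Slc22a8 had 1150, 1303, 1141 and 1150 CPM, against 709.5 to 1029 CPM with a median of 857 in controls, and a log2 change of 0.45 ± 0.31 (SE, adjusted p = 0.680). Slc13a1 had 335, 382, 365 and 349 CPM, against 271 to 328 CPM with a median of 296 in controls. None of the 3 passed an unadjusted p of 0.05. The lactate carrier Slc5a8 had 154, 205, 289 and 229 CPM, against 219 to 432 CPM with a median of 351 in controls, with a log2 change of -0.65 ± 0.28 (SE, adjusted p = 0.459), and Abcc4 a log2 change of 0.64 ± 0.26 (SE, adjusted p = 0.414).

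Under AZD8055, Slc47a1 alone of the 36 lay wholly below the controls, where 1.13% of all genes did, and 0 lay wholly above (1.48%). Under ascorbyl-palmitate, enzastaurin and GDC-0941 0 genes lay wholly above (0.836%, 0.87% and 1.33% of all genes) or below (1.42%, 0.853% and 1.22%). Under enzastaurin the log2 changes of the 36 genes ran from -0.80 to 0.95 with none at an unadjusted p under 0.05, whereas Slco4c1, Slc22a7 and Slc22a19 passed it under ascorbyl-palmitate and Lrp2 under GDC-0941. Slc7a7, under AZD8055, had 2.56, 3.48, 1.22 and 1.03 CPM, against 1.94 to 9.88 CPM with a median of 4.64 in controls, a log2 change of -1.17 ± 0.55 (SE, adjusted p = 0.227), and its 4 libraries held 6, 5, 2 and 2 counts. For the other leading genes of each class, the lowest and highest mean over the 6 compounds is given beside the control mean (SD, n = 4 and 6). Those of Slc13a3 ran between 319.8 ± 52.7 CPM (ascorbyl-palmitate) and 545 ± 75.6 CPM (enzastaurin), against 393 ± 56.2 CPM in controls, those of Slc6a18 between 190.3 ± 47.4 CPM (KU0063794) and 338 ± 177 CPM (ascorbyl-palmitate), against 307 ± 163 CPM in controls and those of Slc22a2 between 672 ± 269 CPM (AZD8055) and 890.4 ± 109 CPM (enzastaurin), against 779 ± 91.6 CPM in controls. Those of Slc2a2 ran between 104 ± 24.8 CPM (AS-703026) and 176 ± 28.9 CPM (KU0063794), against 132 ± 22.4 CPM in controls, those of Slc4a4 between 598 ± 182 CPM (ascorbyl-palmitate) and 889 ± 134 CPM (KU0063794), against 842 ± 141 CPM in controls and those of Slc27a2 between 1200 ± 516 CPM (AZD8055) and 1621 ± 325 CPM (GDC-0941), against 1369 ± 242 CPM in controls. Among the low ones, Slc5a2 ran between 3.25 ± 2.02 CPM (AS-703026) and 9.96 ± 7.03 CPM (GDC-0941), against 4.94 ± 3.57 CPM in controls and Pdzk1 between 3.24 ± 2.83 CPM (ascorbyl-palmitate) and 5.71 ± 3.55 CPM (AS-703026), against 2.69 ± 1.97 CPM in controls. Of the 3 sugar carriers, the 3 lactate and monocarboxylate carriers and the 3 carriers of dicarboxylates and sulfate, 1 gene (Slc5a8) passed an unadjusted p of 0.05 in 1 comparison.

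Slc22a19 had the highest coefficient of variation within groups of the 36 genes tested. It had 159, 309.9, 602 and 716 CPM in AS-703026 libraries, 1268, 92.6, 770.5 and 146 CPM in ascorbyl-palmitate libraries and 418, 22.8, 739.5 and 91.2 CPM in GDC-0941 libraries, against 27.9 to 229 CPM with a median of 69.8 in control libraries. High and low libraries stood side by side in the same group, and in controls only replicate 3 was above 100 CPM. The log2 change was 2.34 ± 0.89 (SE, adjusted p = 0.198) for AS-703026 and 2.69 ± 0.90 (SE, adjusted p = 0.192) for ascorbyl-palmitate. Under KU0063794 it had 24.9, 24.5, 24.1 and 126 CPM.

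Slco4c1 and Slc22a7 were high in many of the same libraries. Slco4c1 had 9.21, 15.4, 10.2 and 15.3 CPM in AS-703026 libraries and 23.0, 0.968, 32.3 and 10.9 CPM in ascorbyl-palmitate libraries, against 0 to 5.89 CPM with a median of 2.99 in control libraries. All 4 AS-703026 libraries lay above all controls, with a log2 change of 2.15 ± 0.92 (SE, adjusted p = 0.265); for ascorbyl-palmitate it was 2.57 ± 0.89 (SE, adjusted p = 0.211). Slc22a7 had 185, 52.3, 180.5 and 69.8 CPM in ascorbyl-palmitate libraries, against 32.2 to 88.7 CPM with a median of 54.9 in control libraries, with a log2 change of 1.06 ± 0.45 (SE, adjusted p = 0.326).

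Across the 30 kidney libraries, 6 correlations of log2 levels with Slc22a19 were computed, chosen after the values were seen. Pearson's r was 0.92 with Slc22a7 (Spearman's rho 0.91) and 0.85 with Slco4c1 (rho 0.84). With genes outside the list it was 0.86 for Umod (rho 0.85), the uromodulin of the thick ascending limb, and 0.79 for Cryab (rho 0.78), a marker of the inner medulla. It was negative for Slc22a8, at -0.65 (rho -0.70), and for the phosphate carrier Slc34a1, at -0.66 (rho -0.75). Permutation p-values were 1e-05, the smallest that the permutations can give, for both measures of the 4 positive relations, and 6e-05 and 7e-05 (r) and 7e-05 and 1e-05 (rho) for Slc22a8 and Slc34a1, with adjusted values between 1.2e-05 and 7e-05 over the 6. These p-values do not allow for the choice of the 6 after the values were seen. Libraries were also permuted without regard to group, so no conclusion is drawn from the p-values. Within groups, after subtraction of the group means, r was 0.91, 0.79, 0.80, 0.72, -0.52 and -0.57 in the order Slc22a7, Slco4c1, Umod, Cryab, Slc22a8 and Slc34a1. Without the 2 libraries farthest from the median of Slc22a19 it was 0.89, 0.81, 0.81, 0.73, -0.59 and -0.63 in the same order.

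**Figure D4:**
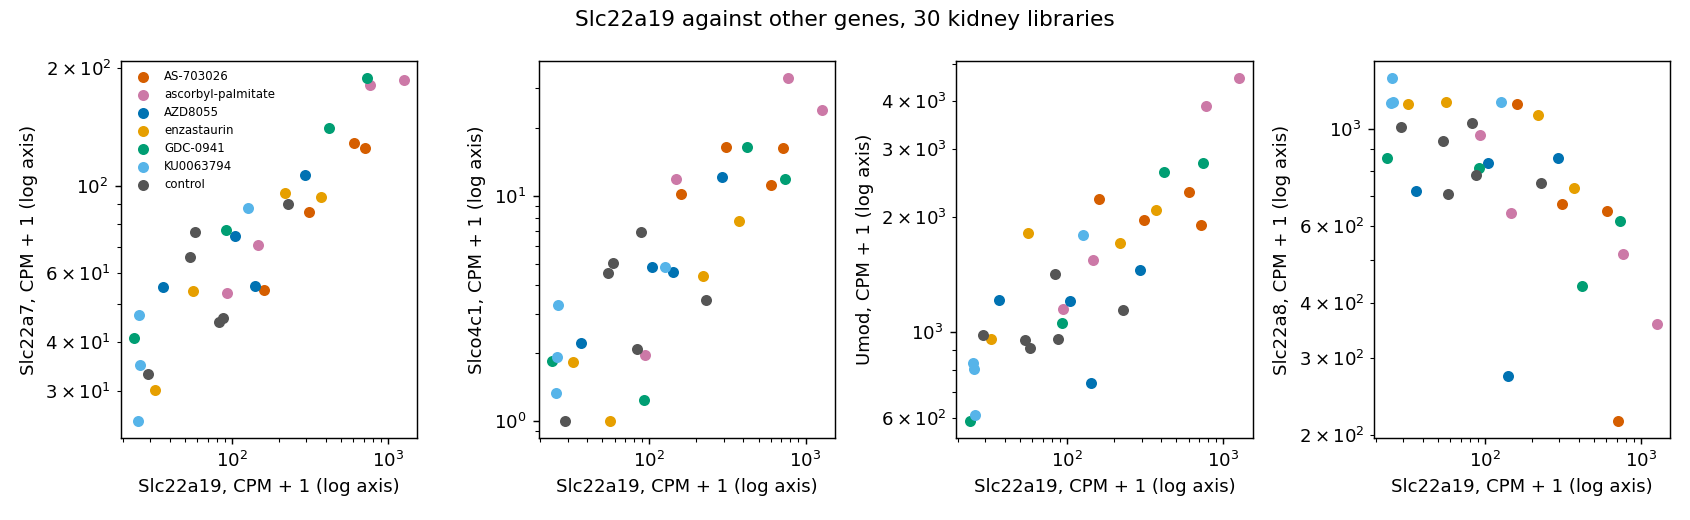
CPM + 1 of Slc22a7, Slco4c1, Umod and Slc22a8 (y axes, log) against Slc22a19 (x axis, log) in the 30 kidney libraries, coloured by compound. Ascorbyl-palmitate replicates 1 and 3 lie at the upper right for Slc22a7, Slco4c1 and Umod, and libraries of most compounds are spread along the whole range.

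In the AS-703026 and ascorbyl-palmitate groups, sums of markers of deeper kidney layers also reached above the control range, though not in these groups alone. In enzastaurin libraries, too, the thick ascending limb markers reached above it, with sums between 1292 and 2632 CPM. The 4 thick ascending limb markers summed to between 2428 and 2922 CPM in AS-703026 libraries and between 1545 and 5520 CPM in ascorbyl-palmitate libraries, against 1269 to 1982 CPM in controls, and the thin limb and inner medulla markers to between 129.5 and 3549 CPM in AS-703026 libraries and between 93.3 and 830.3 CPM in ascorbyl-palmitate libraries, against 81.9 to 100.9 CPM in controls. Under AS-703026, 1 of 4 thick ascending limb markers was called higher, as was 1 of 3 tested for the inner medulla, and under ascorbyl-palmitate 0 of each, with all 7 above 0 in both; of the 2 not tested, Slc14a2 was at 0 in most AS-703026 and control libraries. The part of these layers in the changes of Slc22a19, Slco4c1 and Slc22a7 was not tested. Without AZD8055 replicate 4, 2.69% of all genes were called for AS-703026. Called higher were 3 of 3 thin limb and inner medulla and 1 of 4 thick ascending limb markers tested. So were 2 of 5 principal cell and 2 of 4 tubular injury markers. Of 9 proximal tubule markers outside the list 1 was called lower, and no endothelium, podocyte or leukocyte marker was called. The part of these shifts in the calls of Slc47a1 and Abcc4 in that fit was not tested. By their known place along the tubule, 6 of the genes belong to its late segments and 7 to its early one. Under ascorbyl-palmitate 0 late and 6 early genes were below 0, with median log2 changes of 0.27 and -0.16, and under AS-703026 2 late and 6 early genes, with medians of 0.23 and -0.34. Under KU0063794 the order was the other way, with 5 late genes (median -0.45) and 1 early gene (median 0.41) below 0. Of all genes tested, 50.0%, 47.2% and 53.0% were below 0 under these compounds, in that order. Without AZD8055 replicate 4, late Slc6a18 and early Slc5a2, Slc5a12, Slc7a7, Slc7a8 and Slc4a4 were below 0 under enzastaurin. Under GDC-0941, late Slc5a8 and Slc6a18 and early Slc7a8 and Slc4a4 were. Under AZD8055, late Slc6a18 and early Slc6a19, Slc7a7, Slc7a8 and Slc4a4 were.

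For liver, the comparison was among the 3 compounds, since no liver controls were analysed here. Of the 12 genes tested, 3 differed among the compounds at an adjusted p under 0.05 by edgeR's quasi-likelihood F test over 9490 genes, of which 3.36% did. Slc47a1 had 96.6, 89.7, 92.6 and 104 CPM in AS-703026 livers, 195, 123, 126 and 139 CPM in enzastaurin livers and 141, 182, 170.5 and 162 CPM in GDC-0941 livers (adjusted p = 0.00750). All AS-703026 livers lay below all others. Slc27a2 had 787, 1020, 891 and 1003 CPM in AS-703026 livers, 1171, 1115, 1124 and 1091 CPM in enzastaurin livers and 1689, 1210, 1331 and 1622 CPM in GDC-0941 livers (adjusted p = 0.0118). The 3 groups did not overlap, with AS-703026 lowest and GDC-0941 highest.

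Slc4a4 ran otherwise, with 41.97, 50.8, 57.0 and 52.4 CPM in AS-703026 livers, 27.1, 26.5, 37.2 and 31.3 CPM in enzastaurin livers and 46.7, 48.8, 37.1 and 41.5 CPM in GDC-0941 livers (adjusted p = 0.0173). Enzastaurin was lowest, and its highest library just reached the lowest GDC-0941 library. The log2 difference of AS-703026 minus GDC-0941 was -0.77 (95% interval -1.06 to -0.49) for Slc47a1, -0.66 (95% interval -0.92 to -0.40) for Slc27a2 and 0.22 (95% interval -0.08 to 0.52) for Slc4a4, and that of AS-703026 minus enzastaurin was -0.60 (95% interval -0.89 to -0.31), -0.28 (95% interval -0.54 to -0.03) and 0.73 (95% interval 0.43 to 1.04) in the same order. Leaving out libraries with 1% or more satellite-like counts left 1 AS-703026 liver and 0 of the 3 calls, and 0 remained in a fit that took that share as a covariate, so the compound and that share cannot be told apart here. The AS-703026 livers also stood apart on marker lists. Their 5 hepatocyte markers summed to between 37677 and 49264 CPM, against 50380 to 90263 CPM in the other livers, with 0 of the 5 called among the compounds. The 6 genes of the tubular injury list, of which Krt20 and Havcr1 were at or near 0, summed to between 357 and 2606 CPM, with Lcn2 between 63.4 and 2193 CPM, against at most 235 CPM for the list in the other livers, and 2 of the 4 tested were called. Their part in the differences of Slc47a1, Slc27a2 and Slc4a4 was not tested.

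Abcg2, Slc17a1 and Slc13a3 missed the threshold, with adjusted p-values of 0.0948, 0.0832 and 0.0997.

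**Figure D5:**
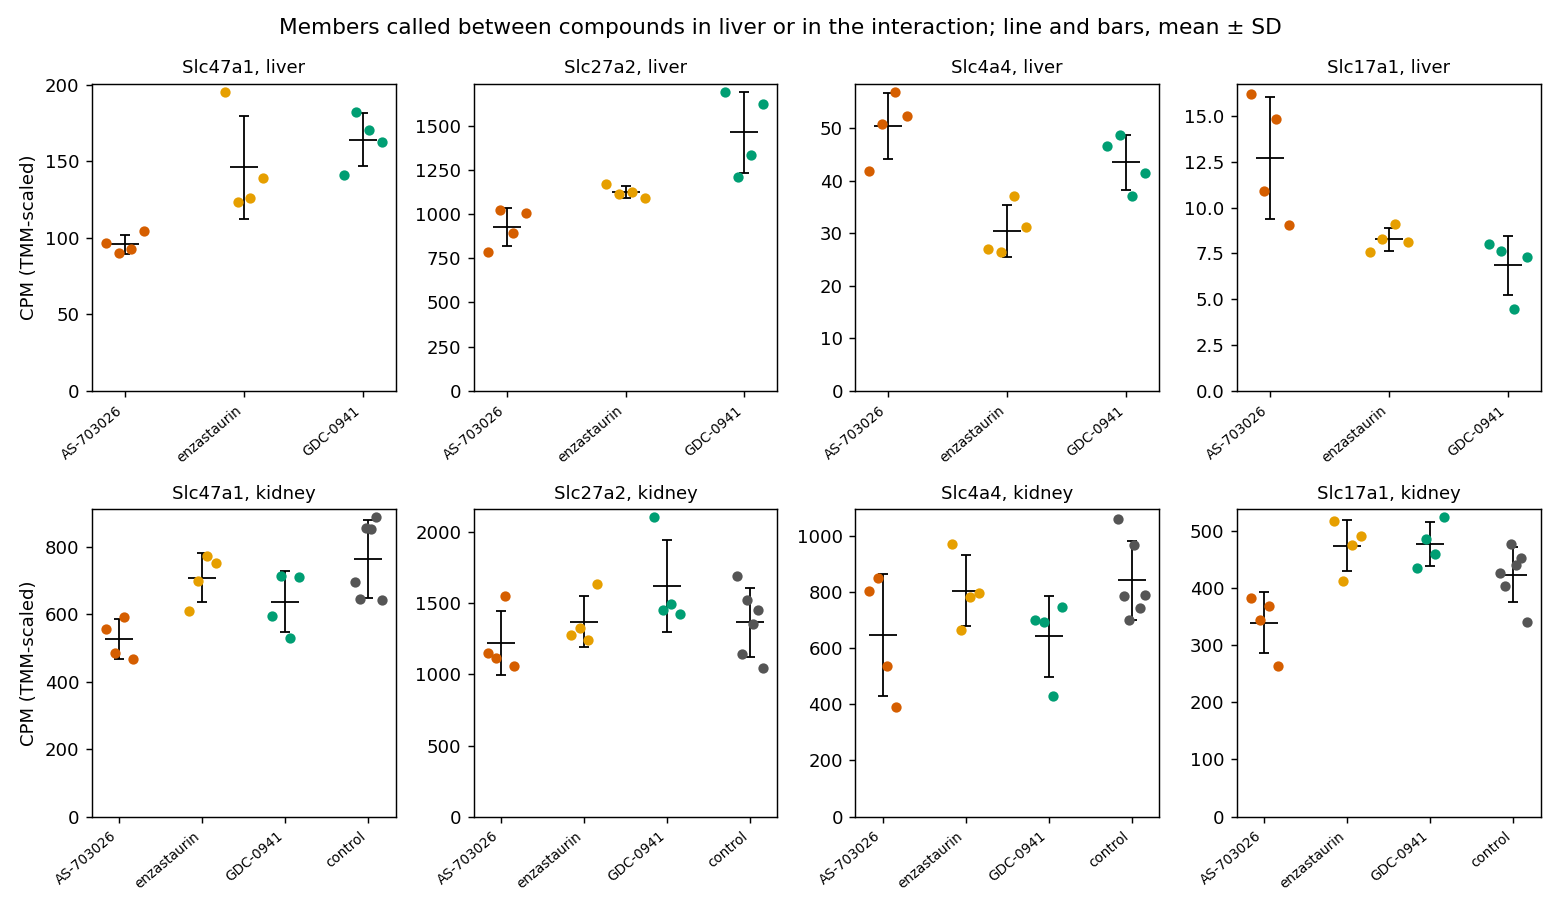
CPM of Slc47a1, Slc27a2, Slc4a4 and Slc17a1 in each liver library (top) and in kidney libraries of the same compounds and controls (bottom); lines and bars are the mean and SD. In liver, AS-703026 lies below the other compounds for Slc47a1 and Slc27a2 and above them in all but 1 pair for Slc17a1.

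Slc47a1 was thus at its lowest under AS-703026 in liver and below all controls under AS-703026 in kidney, but the kidney difference of AS-703026 minus GDC-0941 was -0.28 (95% interval -0.69 to 0.14) and the interaction of compound and tissue had an adjusted p of 0.517. Slc27a2 and Slc4a4 had adjusted p-values of 0.853 and 0.267 in that test.

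The interaction, tested over 12262 genes in the 24 libraries of the 3 compounds, called 1 of 35 genes, where 0.139% of all genes were called. Slc17a1 had 16.2, 10.9, 14.8 and 9.03 CPM in AS-703026 livers, 7.58, 8.28, 9.10 and 8.13 CPM in enzastaurin livers and 7.99, 7.63, 4.48 and 7.28 CPM in GDC-0941 livers. In kidney it had 383, 344, 368 and 264 CPM with AS-703026, 518, 414, 476 and 493 CPM with enzastaurin and 435, 487, 461 and 526 CPM with GDC-0941, so AS-703026 was the highest of the 3 in liver and the lowest in kidney. The log2 difference of AS-703026 minus GDC-0941 was 0.91 (95% interval 0.41 to 1.42) in liver and -0.49 (95% interval -0.99 to 0.01) in kidney, and the adjusted p of the interaction was 0.0120 by edgeR's quasi-likelihood test. Without AS-703026 liver replicate 1 it was 0.0803, without liver replicate 3 0.121, and without the kidney libraries at 5% or more satellite-like counts 0.258. Its neighbour on chromosome 13, Slc17a3, had an adjusted p of 0.447.

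Of 34 other transport genes of the tubule, chosen as a list with earlier results known, 2 were called lower under AS-703026, 2 lower under AZD8055 and 0 under the other 4 compounds. Of all genes tested, 0.734% were called for AS-703026, 5.38% for AZD8055 and 0% to 0.179% for the others. The AZD8055 count is thus near the share of all genes. The uptake carrier Slco1a1 averaged 219 ± 32.2 CPM with AS-703026 and 699 ± 217 CPM in controls (SD, n = 4 and 6), a log2 change of -1.67 ± 0.31 (SE, adjusted p = 0.0241). Slc22a30 averaged 177 ± 22.5 CPM with AS-703026, 203 ± 79.2 CPM with AZD8055 and 443 ± 235 CPM in controls, with log2 changes of -1.32 ± 0.31 (SE, adjusted p = 0.0377) and -1.13 ± 0.31 (SE, adjusted p = 0.0300). Slc22a28 averaged 138 ± 65.5 CPM with AZD8055 and 287 ± 114 CPM in controls, a log2 change of -1.06 ± 0.31 (SE, adjusted p = 0.0388). Both Slc22a28 and Slc22a30 belong to a cluster of closely related mouse anion carriers, so reads may have been split between copies and their values are uncertain. Whether this also holds for Slc22a19, an anion carrier of the same gene family, was not tested. Of 20 partners and regulators, such as the transcription factor Hnf4a, the collectrin Cltrn that carries Slc6a19 to the membrane, and the megalin adaptor Dab2, 18 were tested and 0 called in any kidney comparison.

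Without AZD8055 replicate 4, AZD8055 had 0 calls among the other transport genes, with log2 changes of -0.88 for Slc22a30 (adjusted p = 0.199) and -0.78 for Slc22a28 (adjusted p = 0.207) by edgeR's quasi-likelihood test. AS-703026 then had 6, where 2.69% of all genes were called, and 5 were lower, namely the organic anion carriers Slco1a1, Slco1a6, Slc22a28 and Slc22a30, the proton-coupled amino acid carrier Slc36a1, while the vitamin C carrier Slc23a1 was higher, and GDC-0941 had 1 (Slc22a28, lower), where 0.384% of all genes were called. Among the partners and regulators, Clcn5, an endosomal chloride and proton exchanger, was then called for AS-703026. In liver, 4 of the 18 other transport genes tested differed among the 3 compounds (Slco1a1, Slc13a2, Slc22a28 and Slc22a30), where 3.36% of all genes did.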

How the data were processed

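RNA of frozen kidney and liver was measured by CEL-seq of polyadenylated RNA. The deposited table holds whole-number counts per gene, not normalized by the authors. Per the submitters' processing notes, reads went through bcl2fastq 1.8.4, Trimmomatic 0.32, STAR 2.5.2b and featureCounts 1.5 on mm10; the sources used here give no annotation release, strand setting or collapse of molecular identifiers, so counts may include amplification copies.

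Kidney (30 libraries), liver (12) and both tissues (24, for the 3 shared compounds) were fitted separately with edgeR 4.0.16 in R 4.3.3: low counts removed by filterByExpr, TMM scaling, a robust quasi-likelihood F test and Benjamini-Hochberg adjustment over all genes tested, with a threshold of 0.05. CPM are on TMM-scaled library sizes within each tissue. DESeq2 1.42.0 and limma 3.58.1 (voom) were alternatives. Permutation tests of the correlations used 100000 permutations. The fits were also run on simulated counts with the same spread for every gene and no library that stood apart. That run does not cover uneven libraries such as those described above.

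The 37 genes, the marker lists and the other gene lists were chosen with earlier results of these data known, and no list was tested as a set. Named genes are those past the threshold in a test, in each substrate class the gene with the highest kidney level and the one with the smallest p among the 7 groups, and those with 5 CPM or more in liver; other genes were named for completeness or after their values were seen. The labels do not tie kidney to liver samples of 1 mouse, and p-values measure the spread between these libraries. Totals per library set the depth, and floors of 3 counts cover counting error only. Promoters are from RefSeq; another motif searched in them is not reported here.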

Additional observations from a re-analysis of the deposited data

Results flagged for a closer look

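In 22 of 183 groups of 4 or 6 libraries, the highest or lowest value of a gene stood apart from the others by Dixon's gap criterion. For independent groups of normally spread values, chance gives about 1 in 20. The 183 groups are of 21 genes, named partly by their values, in the same libraries, so the 22 cannot be set against that share. Of these, 8 were low values of the AZD8055 kidney replicate 4, in which the adipocyte markers summed to 25965 CPM. That library had 46.8 CPM of Slc2a2 (143 to 152 CPM in the other 3 AZD8055 libraries), 103 of Slc5a8 (343 to 374), 67.9 of Slc26a1 (213 to 225), 125 of Slc6a19 (564 to 615), 102 of Slc17a1 (432 to 489), 223 of Slc47a1 (569 to 607), 427 of Slc27a2 (1420 to 1480) and 243 of Slc4a4 (731 to 773).

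Among enzastaurin kidneys, replicate 1 had 10.2 CPM of Slc5a2 (2.48 to 3.78 in the others), 1050 of Slc22a2 (818 to 857) and 8.52 of Pdzk1 (2.16 to 2.78). Replicate 2 had 417 CPM of Slc5a8 (349 to 361) and replicate 3 had 284 CPM of Slc26a1 (163 to 181). Among AS-703026 kidneys, replicate 4 had 67.9 CPM of Abcc4 (20.9 to 25.6) and replicate 2 had 11 CPM of Pdzk1 (3.29 to 4.38). Among GDC-0941 kidneys, replicate 1 had 2110 CPM of Slc27a2 (1430 to 1490), and replicate 3 had 115 CPM of Abcc2 (188 to 200) and 430 CPM of Slc4a4 (692 to 746). KU0063794 replicate 2 had 1300 CPM of Slc22a8 (1140 to 1150), and control replicate 2 had 728 CPM of Lrp2 (1020 to 1160). In liver, enzastaurin replicate 1 had 75.8 CPM of Slc22a7 (22.7 to 27.4) and GDC-0941 replicate 3 had 87.3 CPM of Aqp1 (107 to 109). No explanation of these values was tested.

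The compound differences of Slc17a1 differed between kidney and liver (adjusted p = 0.0120 for the interaction, edgeR's quasi-likelihood test).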

How the results depend on the processing

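No member was called in any kidney comparison with control, and most alternatives gave the same. For AS-703026, 1 member was called with limma voom sample weights and 1 with the 2 groups alone. For AZD8055, 1 was called with RLE scaling, 2 with DESeq2 and 1 with the satellite-like share as covariate. Without the libraries at 5% or more satellite-like counts 2 were called, with only AZD8055 replicates 3 and 4 left in that group. In the test among the 7 groups DESeq2 called 1. For liver, 5 were called with no filter, 0 with the satellite-like share as covariate and 0 without the libraries at 1% or more. For the interaction, DESeq2 called 2, no filter 2, the replicate block 2 and leaving out the libraries at 5% or more satellite-like counts 0. Slc22a7 in kidney against liver turned to -0.056 (adjusted p = 0.896 by edgeR) without those libraries. The cause was not tested in any of these. All genes called are given below only as ranges over the settings, so these counts are not set against the share in the same setting.

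Leaving out 1 library gave 0 to 2 called members for AS-703026 and for AZD8055, 0 for the other 4 kidney comparisons and among the 7 groups, 2 to 5 for liver, 34 to 36 for kidney against liver and 0 to 1 for the interaction. Over all genes, this gave 0 to 329 calls for AS-703026, 32 to 834 for AZD8055, 146 to 417 for liver and 10 to 35 for the interaction. Abcc4 under AS-703026 passed with AZD8055 replicate 4 left out (0.88, adjusted p = 0.0458, edgeR). Slc4a4 in liver was lost without AS-703026 replicate 3 or enzastaurin replicate 2, and Slc22a7 passed in kidney against liver without enzastaurin liver replicate 1 (0.66, adjusted p = 0.0304, edgeR). Counts over all genes varied more, with 86 called for AS-703026 (1 to 258 across settings) and 631 for AZD8055 (0 to 1230). They were 248 among the 7 groups (7 to 526), 319 for liver (2 to 739) and 17 for the interaction (1 to 230). Same-numbered libraries of different kidney groups had a median r of -0.0228 over 84 pairs (-0.526 to 0.511). Those of kidney and liver had a median r of 0.0205 over 12 pairs. Such values cannot exclude that the numbers mark a shared mouse or batch. The replicate block changed no other count of members by over 1.5 times.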
